A study of Mus musculus with 4 samples.

Results

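DNA methylation was described at 7 genes of the tuft cell, a rare chemosensory epithelial cell, in mouse colonic intestinal stem cells (ISCs) and differentiated epithelial cells at birth and at weaning. The rule lists the genes by name and uses no methylation value. They were Pou2f3, Gfi1b, Dclk1, Trpm5, Il25, Ptgs1 and Alox5, 7 of 21410 autosomal protein-coding genes of the GENCODE M1 annotation of mm9. From 5 kb upstream of the first annotated start to the end of the gene they held 2081 windows (bins) of 200 bp with a CpG. Of these, 1263 held 2 or more CpGs, with 10 or more calls in every one of the 4 libraries, and were tested, out of 4076373 such bins on all autosomes. The other member bins were not tested.

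Tuft cells sense the gut lumen and answer parasites and microbial metabolites. The POU factor Pou2f3 is the lineage's required regulator and Gfi1b is a zinc finger repressor also expressed in it. Dclk1 is a microtubule-associated kinase widely used as the marker of these cells. Their signal passes through a taste-like cascade that opens the cation channel Trpm5. Their output includes the cytokine Il25, which activates type 2 lymphoid cells, and lipid mediators made by the cyclooxygenase Ptgs1 and the lipoxygenase Alox5. CpG methylation is usually low at active or CpG-rich promoters and high in transcribed gene bodies, and distal elements that bind transcription factors tend to lose it.

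Whole-genome bisulfite sequencing was made on colon of C57 strain mice from a cross of Lgr5-EGFP-CreER animals with the wild type. This allele drives green fluorescent protein and an inducible Cre from the Lgr5 stem cell locus. ISC_P0 and ISC_P21 were EGFP-positive Lgr5+ ISCs taken at postnatal days 0 and 21, the beginning and end of suckling. DIFF_P0 and DIFF_P21 were the matching cells labelled by epithelial cell adhesion molecule (EpCAM) and negative for EGFP. For P0 whole litters were pooled, and for P21 only offspring positive for the reporter, so pooling differed with age. The paper describes mosaic expression in this line, with crypts negative for EGFP. The EGFP-negative gate could therefore hold some stem cells, at P0 also from any pups without the allele. Their share was not measured. Each group was 1 library, so every test below compares libraries and not conditions, and no spread between animals could be measured. Tuft cells were not sorted: a level is an average over all cells of the gate, and a change in a few cells cannot be told apart from a change in cell make-up.

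The 4 libraries held 1023427645 to 1188114423 calls, with a median of 16 to 25 calls per CpG. Member bins had a median of 58 calls in ISC_P0, 88 in DIFF_P0, 60 in ISC_P21 and 70 in DIFF_P21, close to the medians over all bins tested. Promoters of 12 epithelial marker genes had a median level between 0.965% and 2.53% in the 4 libraries, and 10 of the 12 were below 30% in both P0 libraries and 11 in both P21 libraries. Krt20 was at 51.4% to 55.4% in all 4, and Hnf4a at 35.4% in ISC_P0 and 32.6% in DIFF_P0. At Epcam, which encodes the sorted surface protein, it was 2.01% to 4.18%. Promoters of 12 immune marker genes had a median between 75.8% and 76.9%, and 1 of the 12 was below 30% in each library. Of 4 endothelial markers, 1 was below 30% in each library, and 5 of 8 stromal markers were, with a stromal median of 13.3% to 22.2%. These marker levels were measured on methylation only, and the part of other cell types in the results below was not tested.

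The intronic sequences that carried the clearest changes with age are shown first, each 1 bin of the mm9 plus strand with its CpGs in capitals. The first pair are neighbours in intron 3 of Pou2f3 that lost methylation in both populations, and the Pou2f3 bin of intron 2 gained it in both. The Alox5 bin and the first Dclk1 bin lost it in both populations. The last Dclk1 bin gained methylation in ISCs and not detectably in differentiated cells.
Pou2f3 intron 3, chr9:42959201-42959400: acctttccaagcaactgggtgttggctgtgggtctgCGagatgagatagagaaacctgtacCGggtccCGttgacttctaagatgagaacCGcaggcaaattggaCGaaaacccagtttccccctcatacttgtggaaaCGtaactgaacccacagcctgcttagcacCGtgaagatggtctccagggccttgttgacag
Pou2f3 intron 3, chr9:42959401-42959600: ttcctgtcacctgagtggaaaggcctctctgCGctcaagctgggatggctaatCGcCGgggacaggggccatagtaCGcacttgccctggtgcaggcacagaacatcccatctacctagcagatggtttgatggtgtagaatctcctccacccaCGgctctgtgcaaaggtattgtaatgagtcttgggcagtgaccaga
Pou2f3 intron 2, chr9:43002201-43002400: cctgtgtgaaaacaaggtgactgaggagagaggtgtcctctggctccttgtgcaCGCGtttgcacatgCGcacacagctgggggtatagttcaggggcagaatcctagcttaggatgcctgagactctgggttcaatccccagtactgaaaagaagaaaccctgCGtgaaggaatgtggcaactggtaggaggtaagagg
Alox5 intron 3, chr6:116380201-116380400: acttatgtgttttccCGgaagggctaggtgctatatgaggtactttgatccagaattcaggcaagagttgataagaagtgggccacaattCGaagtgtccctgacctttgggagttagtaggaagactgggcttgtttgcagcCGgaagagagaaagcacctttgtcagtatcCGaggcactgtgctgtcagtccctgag
Dclk1 intron 3, chr3:55173201-55173400: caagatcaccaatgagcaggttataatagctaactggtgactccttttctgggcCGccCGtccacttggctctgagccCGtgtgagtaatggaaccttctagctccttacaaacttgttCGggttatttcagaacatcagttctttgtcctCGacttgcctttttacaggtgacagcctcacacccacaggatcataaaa
Dclk1 intron 16, chr3:55328801-55329000: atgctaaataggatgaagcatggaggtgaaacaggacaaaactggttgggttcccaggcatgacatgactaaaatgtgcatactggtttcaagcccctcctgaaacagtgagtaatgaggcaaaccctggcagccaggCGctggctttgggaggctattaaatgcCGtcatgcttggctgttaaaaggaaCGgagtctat

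The promoters of the 7 genes, taken as the bins within 1 kb of the main transcription start, fell into 2 kinds that were alike in every library. Pou2f3, Gfi1b, Dclk1, Ptgs1 and Alox5 had low promoter levels, and Trpm5 and Il25 had levels above 60%. A level is the methylated share of all CpG calls in the region. Its 95% Wilson interval covers counting error only and takes all calls as independent. Calls on 1 read are not independent, so the interval can be too narrow. The SEs given below share this limit.

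**Figure D1:**
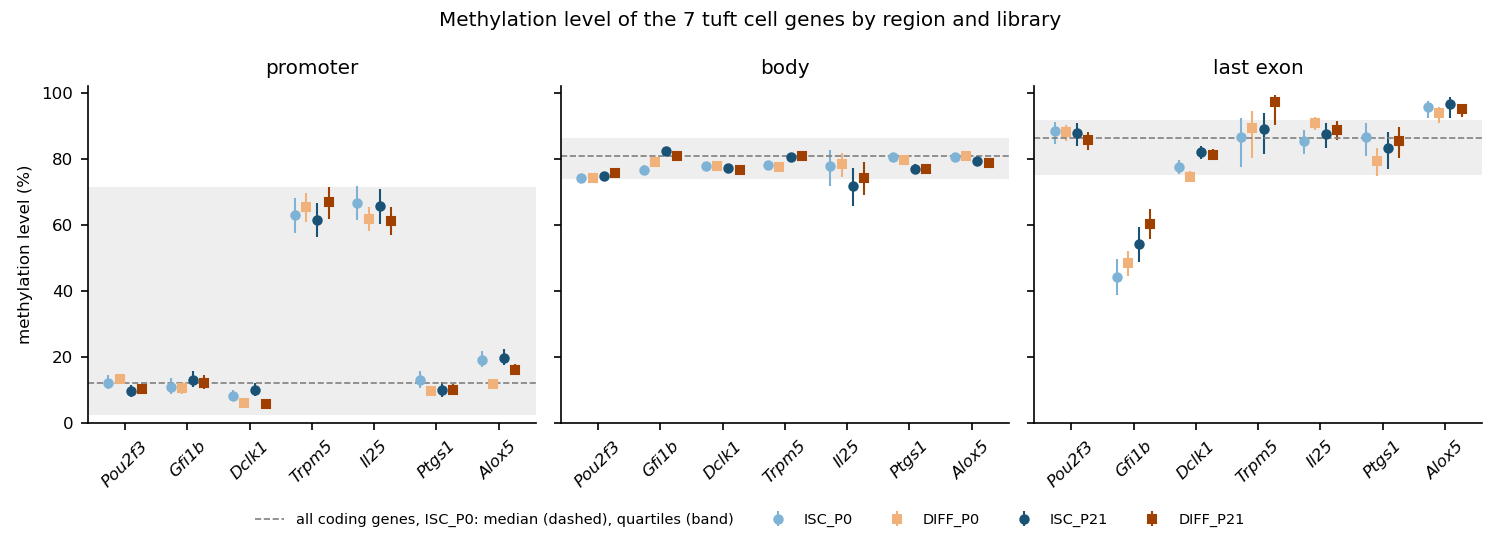
Methylation level (%) of the promoter, body and last exon of the 7 genes in the 4 libraries, with 95% Wilson intervals as bars, beside the median (dashed line) and quartiles (band) of all autosomal coding genes in ISC_P0. The promoters of Trpm5 and Il25 stand above 60% in every library and the other promoters at or below 19.9%, and the last exon of Gfi1b lies between 44.2% and 60.3%, under the lower quartile of all genes.

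At the regulator Pou2f3 the promoter level was 12.4% in ISC_P0, 13.4% in DIFF_P0, 9.68% in ISC_P21 and 10.5% in DIFF_P21, with an ISC_P0 interval of 10.5% to 14.5%. Gfi1b had 11.1%, 10.7%, 13.2% and 12.3% in the same order. The kinase gene Dclk1 had 8.35%, 6.06%, 10.1% and 5.86%. All 3 lay near the medians of all coding genes, which were 12.3%, 8.46%, 12.1% and 8.94%. The cyclooxygenase gene Ptgs1 had promoter levels of 13.0%, 9.94%, 10.03% and 10.1%. The lipoxygenase gene Alox5 had 19.3%, 12.02%, 19.9% and 16.2%. It was the highest of the low promoters except in DIFF_P0, where Pou2f3 was higher. In Alox5 both ISC libraries were above both differentiated libraries.

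The channel gene Trpm5 had promoter levels of 62.9% in ISC_P0, 65.3% in DIFF_P0, 61.6% in ISC_P21 and 66.8% in DIFF_P21. The cytokine gene Il25 had 66.8%, 61.9%, 65.8% and 61.3%. Both promoters were thus mainly methylated in every library, above 71.2% to 73.5% of all promoters measured. They also held the fewest CpGs, 17 each within 1 kb of the start, against 75 in Pou2f3, 64 in Dclk1, 57 in Alox5, 47 in Ptgs1 and 28 in Gfi1b, and a median of 62 over all promoters. Among all promoters with fewer than 40 CpGs, 7290 in number, the median ISC_P0 level was 78.9% and the lower quartile 60.2%. Gfi1b, with its 28 CpGs, was below the lower quartile of this class. Promoters with about its own number of CpGs were not measured apart.

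The octamer ATGCAAAT, the sequence bound by POU-domain factors such as Pou2f3, was searched on both strands within 1 kb of each main start. It was found in 3 of the 7 genes and in 1889 of 21410 promoters of the same length, or 8.82%. A match is a description of the letters and not a binding site. The 3 matches follow on the gene's own strand, with the octamer in capitals in 30 bases of mm9.
Pou2f3, chr9:43014044-43014073: cagttccacgtATGCAAATccctgttttgc
Dclk1, chr3:55045616-55045645: catactgagccATGCAAATgtttcagagat
Gfi1b, chr2:28478423-28478452: gctgcaagagcATGCAAATcagctaacagt
The Pou2f3 match lay at -220 bp from its own main start. Its bin had levels of 0%, 2.25%, 1.64% and 0.881% in ISC_P0, DIFF_P0, ISC_P21 and DIFF_P21, on 141 to 355 calls. The Gfi1b match lay at -935 bp, in a bin with levels of 9.52%, 20.4%, 7.94% and 5.88% on 21 to 68 calls. Both matches thus stood in bins of low methylation in every library. The Dclk1 match, at -818 bp, lay in a bin that was not tested.

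The annotation gives further starts for 4 of the genes. A second start of Pou2f3 (Pou2f3-202), 4.614 kb upstream of the main one, had levels within 1 kb of 37.7%, 41.5%, 38.7% and 38.2%. Dclk1 has a start deep in the gene, 219.232 kb from the first, from which the short transcript Dclk1-202 is read. It held 24 CpGs and had levels of 13.1% in ISC_P0, 7.27% in DIFF_P0, 19.8% in ISC_P21 and 20.2% in DIFF_P21. The internal start was thus low in all 4 libraries, and it was 6.70 points higher at P21 in ISCs and 12.9 points higher in differentiated cells. These 2 differences were not tested across genes. Of the 5 bins of this start, that at chr3:55265201-55265400 went from 14.3% to 64.1% in ISCs and from 21.4% to 62.5% in differentiated cells. The ISC levels rested on only 14 and 39 calls, and the ISC change was not called. Levels of the start without this bin were not computed. The internal start of Ptgs1 had levels between 71.9% and 79.5%, and those of Trpm5, a pair sharing 3 bins, between 71.4% and 78.3%.

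Gene bodies were highly methylated in all 7 genes, from 71.7% in Il25 of ISC_P21 to 82.2% in Gfi1b of ISC_P21, beside medians over all genes of 80.3% to 81.0%. Last exons, taken past 1 kb from the start, lay between 74.6% and 97.2% outside Gfi1b. That of Gfi1b had a level of 44.2% in ISC_P0, 48.3% in DIFF_P0, 54.2% in ISC_P21 and 60.3% in DIFF_P21, with intervals from 38.9% to 49.6% in ISC_P0 and from 55.7% to 64.7% in DIFF_P21. It was the lowest last exon of the set in each library, and 8.85% to 14.0% of all genes had a lower one. Alox5 stood at the other end, at 95.5%, 93.7%, 96.6% and 95.01%.

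Whether whole regions changed with maturation (P21 minus P0) or differed with differentiation (differentiated cells minus ISCs) was tested with Fisher's exact test on the summed calls, two-sided, adjusted by Benjamini-Hochberg over all autosomal coding genes. A region was called when the adjusted p was below 0.05 and the difference exceeded 15 points. Of the 21 member regions (3 for each gene) 0 were called in any of the 4 comparisons. Over all genes, 2.17% of regions were called for the change with age in ISCs, 1.96% for that in differentiated cells, 0.95% between the populations at P0 and 0.664% at P21. Without the 15 points, 5 member regions of ISCs passed the adjusted p with age, as did 10 of differentiated cells, and 2 passed between populations at each age. At an unadjusted p under 0.05 there were 6, 10, 7 and 3. By the adjusted p alone 21.5% and 26.4% of all regions passed with age, and 25.3% and 21.7% between the populations, so a pass by p alone is common at this depth. Of the 19 member passes, 12 were lost with the calls of each bin thinned at random to those of its lowest library and 17 with the calls divided by the CpGs of the bin.

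The largest regional change was in the last exon of Gfi1b, which was higher at P21 by 11.97 points in differentiated cells (SE 3.02, counting error; Fisher's exact test, adjusted p = 0.00163). In ISCs the difference was 9.97 points and did not pass. By the mean of bin levels this last exon was at 53.6% in DIFF_P0 and 60.4% in DIFF_P21, a smaller rise. The body of Gfi1b was higher at P21 by 5.55 points in ISCs (SE 1.09, adjusted exact p = 4.29e-06) and by 2.03 in differentiated cells (adjusted exact p = 0.0431), so all 3 of the passing differences of this gene were gains. In Dclk1 the last exon, at 77.6%, 74.6%, 82.0% and 81.2%, was higher at P21 by 4.32 points in ISCs (adjusted exact p = 0.0285) and by 6.64 points in differentiated cells (adjusted exact p = 1.73e-06). The body of Trpm5 was higher at P21 by 2.58 and 3.45 points, and that of Ptgs1 was lower in both populations, by 3.62 points in ISCs and 2.80 in differentiated cells. With the mean of bin levels the Ptgs1 body was at 78.54% and 78.47% in ISCs, and at 78.1% and 73.7% in differentiated cells. Its fall in ISCs was thus nearly absent by that measure. The remaining passes with age were 3 points or less apart from the Alox5 promoter, higher at P21 by 4.19 points in differentiated cells (adjusted exact p = 0.000837).

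Between the populations the passes were confined, among the 21 regions, to the promoters of Alox5 and Dclk1. Alox5 was lower in differentiated cells by 7.28 points at P0 (SE 1.37, Fisher's exact test, adjusted p = 2.06e-07) and by 3.71 at P21 (adjusted exact p = 0.0486). Dclk1 was lower by 2.28 points at P0 (adjusted exact p = 0.0489) and by 4.25 at P21 (adjusted exact p = 0.000699). These differences changed with the settings. With thinned calls that of Alox5 was -1.15 points at P0 and -1.04 at P21, that of Dclk1 turned to 0.609 points at each age, and none of the 4 passed. With the mean of bin levels the Dclk1 difference at P21 was 0.31 points, while that of Dclk1 at P0 and both of Alox5 kept their direction. Over all promoters the median level was also lower in differentiated cells, 8.46% against 12.3% at P0. A Wald test of whether the change with age itself differed between the populations called 0 of the 21 regions, with 1 at an unadjusted p under 0.05, beside 0.924% of regions over all genes.

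At the scale of single bins the tuft cell genes changed with age about as often as bins over all autosomes. Among ISC libraries 32 of 1263 bins (2.53%) were called by the same test and 15-point rule, adjusted over all autosomal bins, beside 2.56% of all bins. In differentiated cells 34 (2.69%) were called, beside 2.86%. Between the populations 4 bins (0.317%) were called at P0, beside 0.508%, and 5 (0.396%) at P21, beside 0.182%. ISCs had 12 gains and 20 losses, beside 43817 and 60336 over all autosomal bins. Differentiated cells had 18 gains and 16 losses, beside 40447 and 75944. Of the 56 bins called with age in either population, 49 were in introns, 4 in exons and 3 upstream. The tested bins were not counted by feature, so this split is a description and shows no preference for introns. When the calls of each bin were divided by its number of CpGs, as if all were read on the same molecules, 0 of the bins stayed called in any comparison, with 16 of the 32 and 17 of the 34 at an unadjusted p under 0.05; over all bins the calls with age then numbered 3049 and 8422. Division keeps the level of each bin apart from rounding. The differences of all 33 calls named by the fixed rule therefore kept their direction by construction. The Pou2f3 bin at chr9:42959401-42959600 in ISCs, for example, had -47.1 points after division and -46.98 before. With thinned calls, 15 of these 33 calls were lost, 9 of them in Dclk1.

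**Figure D2:**
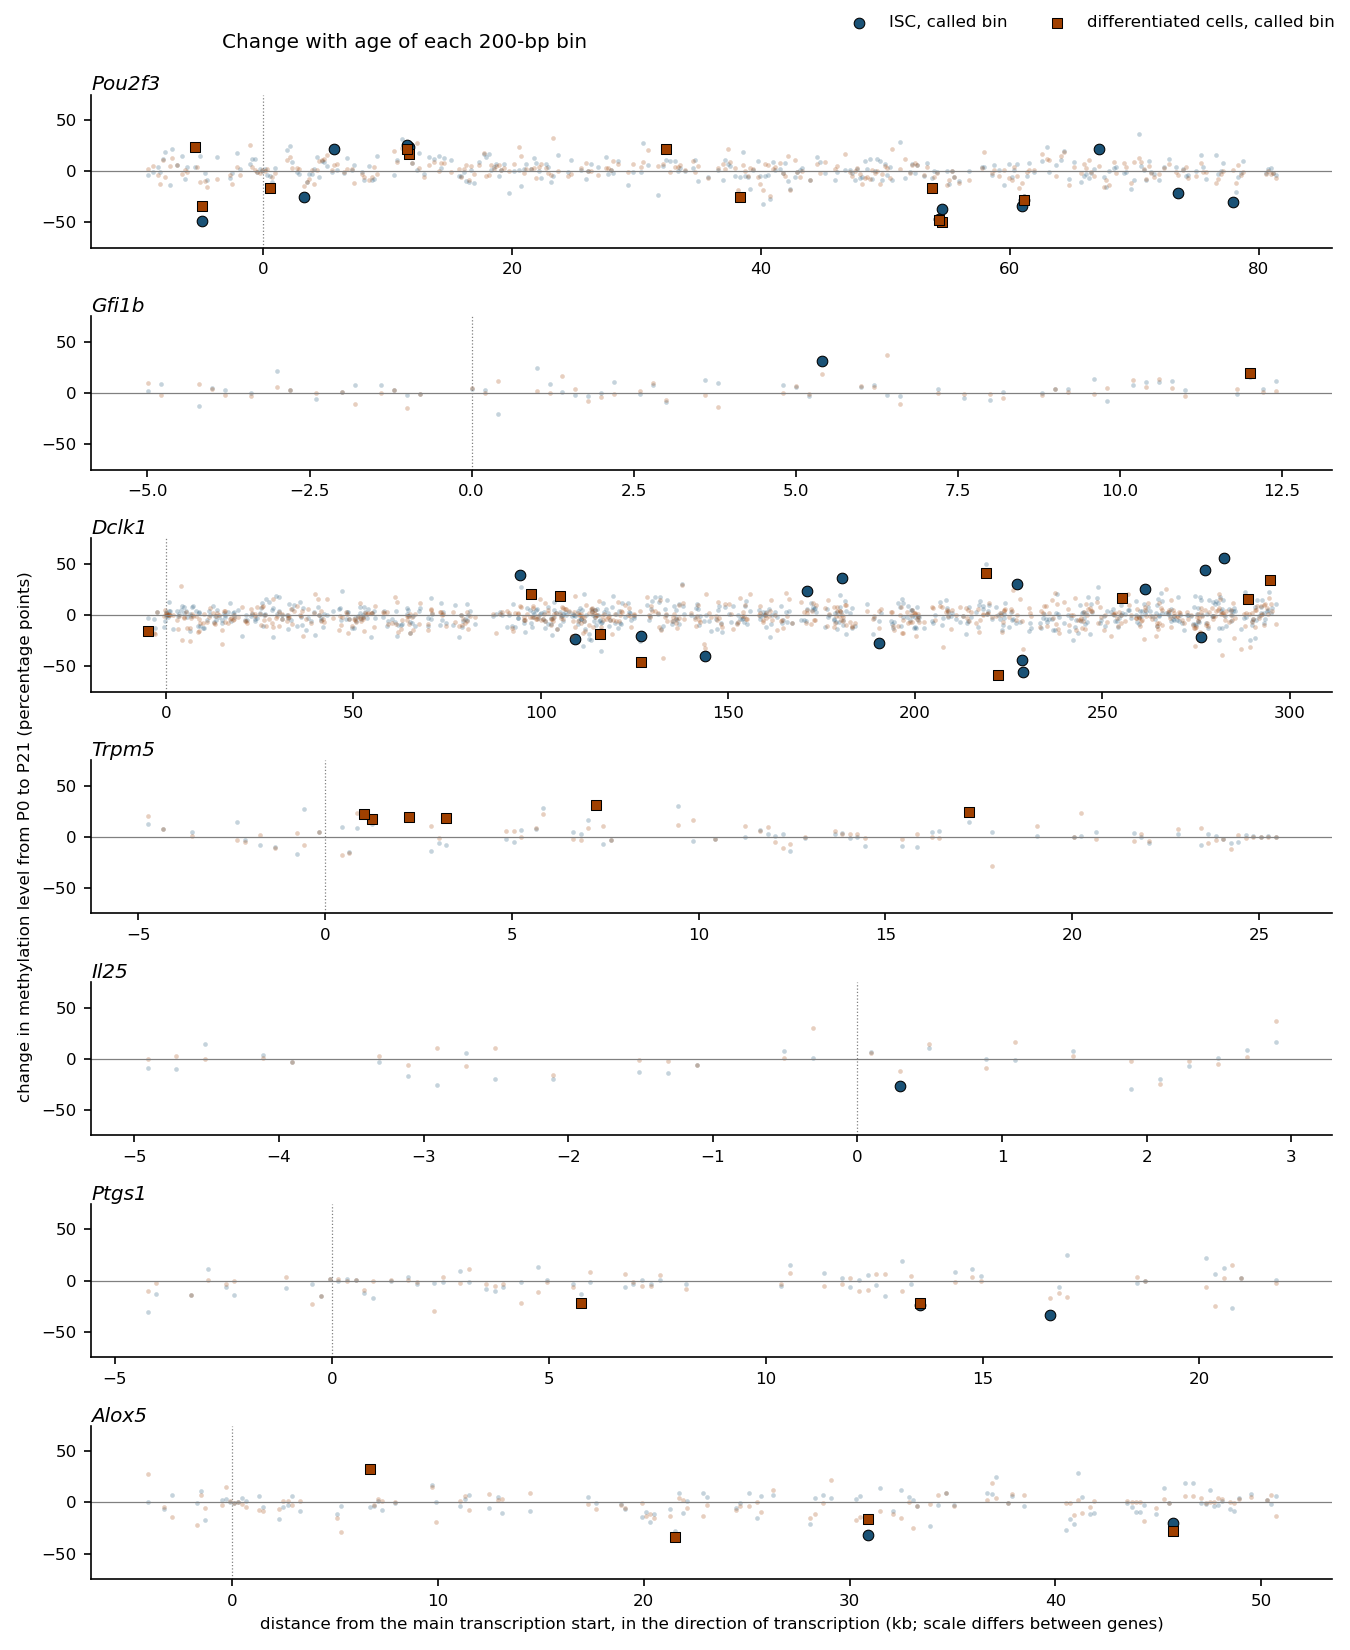
Change in methylation level from P0 to P21 (percentage points, y) of each tested 200-bp bin against its distance from the main transcription start (kb, x), with called bins as large outlined points, circles for ISCs and squares for differentiated cells. Called bins of Pou2f3 and Dclk1 are spread along their introns in both directions, and the 6 called bins of Trpm5 are all gains in differentiated cells.

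The changes of the 2 populations had the same direction about as often as over the genome. Of the 32 bins called in ISCs, 28 had the same sign in differentiated cells (87.5%, beside 84.2% over the genome). In all, 10 bins were called in both populations with the same sign and 0 with opposite signs: 8 were losses and 2 gains. They made up 31.25% of the ISC calls and 29.4% of the differentiated calls, beside 36.3% and 32.5% over all autosomal bins, where 37823 bins were called in both with the same sign and 320 with opposite signs. Those 10 were in Pou2f3 (6), Alox5 (2), Dclk1 (1) and Ptgs1 (1).

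**Figure D3:**
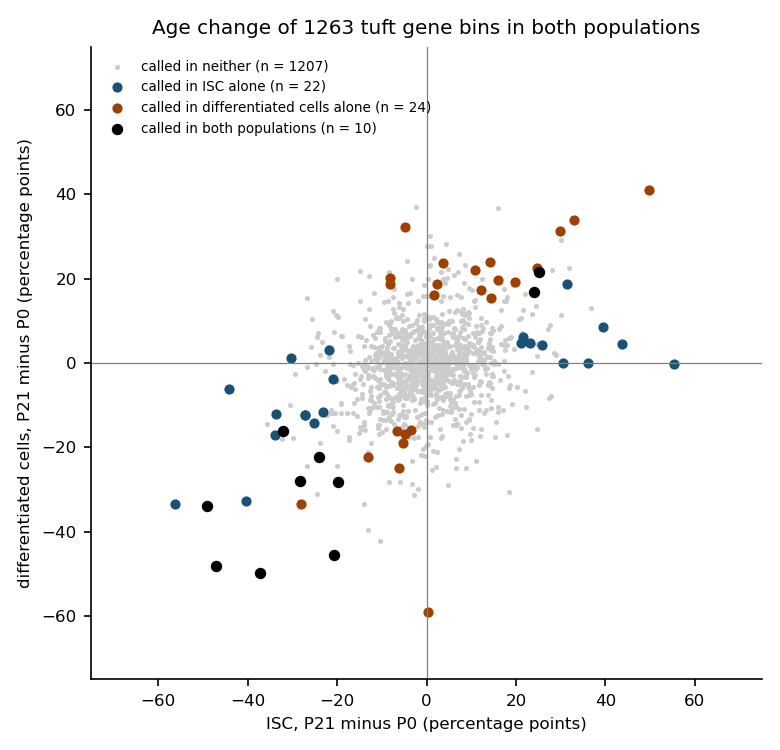
Change with age in ISCs (percentage points, x) against that in differentiated cells (y) for the 1263 tuft gene bins, with points coloured by the population in which the bin was called. The 10 bins called in both populations lie at the lower left (8 losses) and upper right (2 gains), and bins called in ISCs alone number 22 and in differentiated cells alone 24.

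Pou2f3 had 12 called bins of 286 in ISCs (4.20%) and 11 in differentiated cells (3.85%), beside 2.56% and 2.86% over all bins, and 0 between the populations at either age, beside 0.508% and 0.182%. Its clearest change was in intron 3, about 54 kb into the gene, at the first 2 sequences above. Together they had a level of 60.1% in ISC_P0, 64.1% in DIFF_P0, 20.9% in ISC_P21 and 21.0% in DIFF_P21, on 167 to 348 calls, with intervals from 53.5% to 66.3% in ISC_P0 and from 15.8% to 27.1% in ISC_P21. Both P21 libraries were far below both P0 libraries, and the populations were close at each age.

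The first bin of the pair went from 43.1% to 5.88% in ISCs (144 and 119 calls, Fisher's exact test, adjusted p = 6.3e-10) and from 52.2% to 2.50% in differentiated cells (adjusted exact p = 2.6e-15). The second went from 91.1% to 44.2% in ISCs and from 86.1% to 37.9% in differentiated cells. Beyond 1 bin that was not tested, at chr9:42958201-42959000, 4 bins with 17 CpGs were low already at birth. Together they had 5.90% in ISC_P0, 4.72% in DIFF_P0, 0.839% in ISC_P21 and 0% in DIFF_P21. For the last, 0 of 341 calls has an upper bound of 1.11%. The highest single bins of the stretch were at 12.6% in ISC_P0 and 14% in DIFF_P0. On the other side, at chr9:42959601-42959800, the level stayed between 84.7% and 91.1% in all 4 libraries. The bins that lost methylation thus stood between a stretch low in all 4 libraries and a short one high in all 4. Past the latter, the bin at chr9:42960001-42960200 was low again, at 17.6% in ISC_P0, 25% in DIFF_P0, 10.9% in ISC_P21 and 8.82% in DIFF_P21. It was itself called as a loss in differentiated cells (adjusted exact p = 0.0478).

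**Figure D4:**
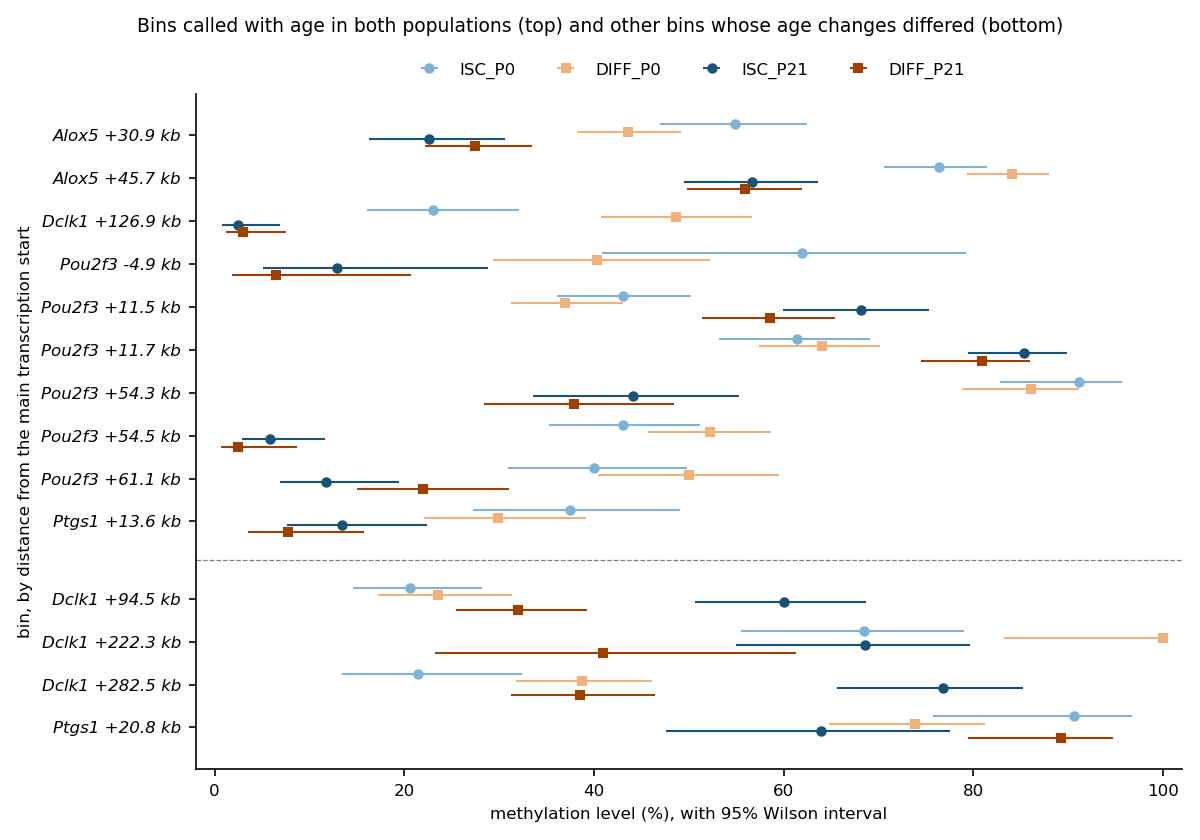
Methylation level (%, x) in the 4 libraries, with 95% Wilson intervals as bars, of the 10 bins called with age in both populations (above the dashed line) and of 4 further bins whose changes with age differed between the populations (below it). In the Pou2f3 bins at 54.3 and 54.5 kb both P21 libraries lie far below both P0 libraries, and in the Dclk1 bin at 282.5 kb ISC_P21 stands apart from the other 3 libraries.

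A second loss in Pou2f3 lay in intron 5. The bin at chr9:42952601-42952800 had 40% in ISC_P0, 50.0% in DIFF_P0, 11.8% in ISC_P21 and 22.0% in DIFF_P21, and fell in both populations, by 28.2 points in ISCs and by 28.0 in differentiated cells. Its neighbour at chr9:42952801-42953000 fell in ISCs, from 61.6% to 28.0%, and was at 56.0% and 44.0% in differentiated cells. A further loss was upstream, at chr9:43018601-43018800, just before the second annotated start. It had 61.9%, 40.3%, 12.9% and 6.45%, on only 21 to 67 calls (adjusted exact p = 0.0276 in ISCs and 0.0233 in differentiated cells). With thinned calls the difference in differentiated cells was -28.6 points and was not called (adjusted exact p = 0.674). In all 3 of these bins both P21 libraries were below both P0 libraries.

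Within intron 1 the bin at chr9:43010401-43010600, 3.338 kb after the main start, fell from 28.6% to 3.45% in ISCs and was at 21.1% and 6.93% in differentiated cells. In the promoter itself the bin at chr9:43013201-43013400 fell in differentiated cells, from 33.6% to 16.7% (adjusted exact p = 1.79e-05), and was at 27.2% and 22.5% in ISCs. Gains lay between these losses. The adjacent bins of intron 2 at chr9:43002001-43002400 had 50.9% in ISC_P0, 49.3% in DIFF_P0, 77.8% in ISC_P21 and 69.5% in DIFF_P21, and each was called in both populations. Pou2f3 therefore held both gains called in the 2 populations, and 4 of the 8 shared losses.

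Gfi1b had 1 bin of 56 called with age in each population (1.79%), beside 2.56% over all bins in ISCs and 2.86% in differentiated cells. In intron 1, at chr2:28472001-28472200, the level rose from 26.1% to 57.5% in ISCs (46 and 87 calls, adjusted exact p = 0.0362) and was at 41.2% and 60.0% in differentiated cells. In its last exon, exon 7, the bin at chr2:28465401-28465600 with 7 CpGs rose from 38.6% to 58.3% in differentiated cells (adjusted exact p = 0.00094) and was at 36.9% and 52.9% in ISCs. The bin at chr2:28478801-28479000, at -1.398 kb from the start, was called between the populations at P0, at 66.5% in ISC_P0 and 83.1% in DIFF_P0, with 74.0% and 83.3% at P21. The gap was 18.2 points with thinned calls but was then not called.

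Dclk1, the longest gene at 296.539 kb, had 14 called bins of 649 in ISCs (2.16%) and 10 in differentiated cells (1.54%), both under the genome's shares. It held 2 of the 4 bins called between the populations at P0, or 0.308% of its bins beside 0.508% over all bins. At P21 it held all 5, or 0.770% beside 0.182%. The bin in intron 3 whose sequence is shown, 126.852 kb after the start, had 23.1% in ISC_P0, 48.6% in DIFF_P0, 2.42% in ISC_P21 and 3.03% in DIFF_P21. It fell in both populations (Fisher's exact test, adjusted p = 0.00021 in ISCs and 5.05e-17 in differentiated cells), and it was higher in differentiated cells at P0 by 25.6 points (adjusted exact p = 0.0164). With thinned calls the gap at P0 was 23.1 points and was not called. By P21 both libraries were close to 0.

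In intron 16 the last sequence shown had 21.4% in ISC_P0, 38.7% in DIFF_P0, 76.8% in ISC_P21 and 38.6% in DIFF_P21, on 69 to 173 calls. It rose in ISCs by 55.4 points (adjusted exact p = 2.07e-08), and differentiated cells differed by less than 1 point. Each of its 3 CpGs was at 70.8% or more in ISC_P21 and at 43.9% or less in the other libraries. At P21 it was lower in differentiated cells by 38.2 points (adjusted exact p = 0.000571). In the 8 kb that end with it, 3 more bins of intron 16 were called between the populations at P21. These were chr3:55321001-55321200 at 94.3% in ISC_P21 and 56.7% in DIFF_P21, chr3:55326401-55326600 at 91.6% and 71.3%, and chr3:55327401-55327600 at 44.9% and 78.5%, so the differences went both ways. With thinned calls the first 2 differed by -48 and -22.1 points and were not called. Another bin of this intron, at chr3:55323801-55324000, rose in ISCs from 37.8% to 81.5% on 37 and 27 calls. In differentiated cells that bin was at 58.0% and 62.5%.

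In intron 3 the bin at chr3:55140801-55141000 had 20.6% in ISC_P0, 23.5% in DIFF_P0, 60.0% in ISC_P21 and 32.0% in DIFF_P21. It rose in ISCs (adjusted exact p = 1.2e-07) and was lower in differentiated cells at P21 by 28.0 points (adjusted exact p = 0.00756). With thinned calls the gap at P21 was -23.6 points and was not called. Its CpGs were not alike. At the first 2, DIFF_P0 was at 85.7% and 87.5% on 7 and 8 calls, beside ISC_P21 at 100% and 93.3%, and at the next one ISC_P21 was at 33.3% and DIFF_P21 at 36.4%. Intron 4 held a loss in ISCs at chr3:55190201-55190400, from 88.6% to 48.3%, and a gain at chr3:55226801-55227000, from 60.0% to 96.2%, each on 45 calls or fewer. In differentiated cells the first of these bins was at 78.9% and 46.2%, and the second at 86.5% and 86.6%. The loss in ISCs was -42.1 points with thinned calls and was then not called.

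In introns 5 and 6 of Dclk1, from 218.852 to 228.852 kb after the main start, several bins with few CpGs were called. Of these only the bin at chr3:55265201-55265400 lay within 1 kb of the internal start, which is at 219.232 kb. The adjacent pair in intron 6 at chr3:55275001-55275400 had 71.6% in ISC_P0, 54.5% in DIFF_P0, 20.9% in ISC_P21 and 38.9% in DIFF_P21, and in ISCs the first bin fell by 44.1 points and the second fell by 56.2. The bin at chr3:55268601-55268800 had 68.4%, 100%, 68.6% and 40.9%. It fell in differentiated cells by 59.1 points (adjusted exact p = 0.00205), but on 19 and 22 calls and 2 CpGs. At chr3:55273601-55273800 the levels were 64.0%, 100%, 94.5% and 100%, and the gap at P0 was called on 25 and 36 calls (adjusted exact p = 0.0296). With thinned calls this gap was still 36 points and the loss in the first bin of the pair -36.1, but neither was called. In front of the internal start, at chr3:55265201-55265400, differentiated cells rose from 21.4% to 62.5% (28 and 32 calls, adjusted exact p = 0.0486), with 14.3% and 64.1% in ISCs. The ISC change, on 14 and 39 calls, was not called. With thinned calls the difference in differentiated cells was 21.4 points and was not called. In the last exon the bin at chr3:55341001-55341200 rose in differentiated cells from 3.03% to 37.0%, on 33 and 27 calls (adjusted exact p = 0.0412). It was at 3.45% and 36.4% in ISCs, on 29 and 11 calls. With thinned calls the difference in differentiated cells was 9.09 points and was not called.

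The calls of Trpm5 went 1 way. In differentiated cells 6 of its 70 bins (8.57%) were called, beside 2.86% of all bins, and all 6 were gains. In ISCs 0 were called, beside 2.56%. Depth differed, with a median of 124 calls per Trpm5 bin in DIFF_P0 and 97 in DIFF_P21, against 62 in ISC_P0 and 69 in ISC_P21. The ISC test thus had fewer calls to detect a change. The adjacent bins in intron 1 at chr7:150279201-150279600 had 73.1% in ISC_P0, 72.0% in DIFF_P0, 90.3% in ISC_P21 and 91.4% in DIFF_P21. Their midpoints lay 1.047 and 1.247 kb after the start, and the level at P21 was high in both populations. In intron 4 the bin at chr7:150273201-150273400 rose in differentiated cells from 38.2% to 69.6% (adjusted exact p = 0.0133) and was at 52.6% and 82.4% in ISCs, where only 17 calls were made at P21. With calls thinned to that library the difference in differentiated cells was 0 points and the call was lost. The 3 further gains were of 18.8 to 23.9 points. No bin of Trpm5 was called for a difference between the 2 changes, so the gains were not shown to be particular to differentiated cells.

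Il25 is a short gene of 3 exons with 28 tested bins. Its 1 called bin, in ISCs (3.57%, beside 2.56% over all bins), lay in exon 2, 0.292 kb after the start, at chr14:55551801-55552000. It had 46.9% in ISC_P0, 37.8% in DIFF_P0, 19.7% in ISC_P21 and 25.5% in DIFF_P21, and fell in ISCs (98 and 76 calls, adjusted exact p = 0.0126). Both P21 libraries were below both P0 libraries, although the promoter as a whole differed by 1 point or less with age. The stretch from 5 to 1 kb before the start was tested in the same way but is not among the 21 regions, and 0 of the 7 genes were called there in any comparison. Over all genes 2.07% of these stretches were called with age in ISCs, 1.95% in differentiated cells, 1.61% between the populations at P0 and 1.1% at P21, and by the adjusted p alone 17.7%, 21.6%, 19.7% and 16.8% passed. In Il25 it had 74.0%, 65.2%, 65.3% and 64.2%, and fell by 8.63 points with age in ISCs (adjusted exact p = 0.00205). At P0 it was 8.72 points lower in differentiated cells (adjusted exact p = 0.000406). ISC_P0 thus stood above the other 3 libraries. With thinned calls the gap at P0 was -5.56 points and did not pass. In Ptgs1 this stretch fell by 9.86 points in ISCs (adjusted exact p = 0.0109) and by 8.26 in differentiated cells (adjusted exact p = 0.0158), and neither passed with thinned calls. That of Dclk1 fell by 10.3 points in differentiated cells (adjusted exact p = 0.0035). With thinned calls it was -16 points and called, and with a minimum of 1 CpG it was -6.39 points and did not pass.

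Ptgs1 had 2 called bins of 63 in each population (3.17%), beside 2.56% over all bins in ISCs and 2.86% in differentiated cells. All were losses. The bin in intron 8 at chr2:36099401-36099600 had 37.5% in ISC_P0, 29.9% in DIFF_P0, 13.4% in ISC_P21 and 7.69% in DIFF_P21, and was called in both (adjusted exact p = 0.0298 and 0.00904). In intron 9 the bin at chr2:36102401-36102600 fell in ISCs from 74.4% to 40.5% (adjusted exact p = 0.0011) and was at 58.1% and 41.0% in differentiated cells. In intron 2 the bin at chr2:36091601-36091800, at the internal start, fell in differentiated cells from 71.0% to 48.7%, and was at 70.4% and 57.4% in ISCs. At P0 the bin in exon 8 at chr2:36098201-36098400 was higher in differentiated cells, 88.7% against 72.9% (adjusted exact p = 0.0352). The gap was 15.9 points with thinned calls and was then not called.

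Alox5 had 2 called bins of 111 in ISCs (1.802%) and 4 in differentiated cells (3.604%), and the 2 were shared. Over all bins the shares were 2.56% in ISCs and 2.86% in differentiated cells. In intron 3, at the Alox5 sequence shown, the level was 54.8% in ISC_P0, 43.6% in DIFF_P0, 22.7% in ISC_P21 and 27.4% in DIFF_P21, on 128 to 314 calls (adjusted exact p = 8.4e-06 in ISCs and 0.00632 in differentiated cells). In exon 8, at chr6:116365401-116365600 with 9 CpGs, it was 76.4%, 84.1%, 56.7% and 56.0% (adjusted exact p = 0.00229 and 4.99e-10). Both bins were lower in both P21 libraries. A further bin of intron 3, at chr6:116389601-116389800, was called in differentiated cells, where it fell from 63.0% to 29.5%, and was at 73.9% and 45.8% in ISCs. The bin of intron 1 at chr6:116404401-116404600 rose in differentiated cells from 60.4% to 92.6%, with 82.1% and 77.2% in ISCs. With thinned calls these differences were -22.9 and 30.8 points, and neither was called (adjusted exact p = 0.554 and 0.121).

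Whether the change with age differed between the populations was also tested bin by bin with the Wald test, a test added after the data were seen. It called 5 member bins (0.396%), beside 0.518% of all bins. They were 4 bins of Dclk1 already described and 1 of Ptgs1, in its last exon. The test is approximate at fewer than about 30 calls, as in the Dclk1 bin of intron 6.

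Outside promoters, bins with a level under 30% in all 4 libraries numbered 27 of 1183 member bins (2.28%), against 4.11% of all bins over 1 kb from a coding start. Dclk1 held 13, Pou2f3 11, Il25 2 and Trpm5 1, while Gfi1b, Ptgs1 and Alox5 held 0. In Dclk1 the bin at chr3:55177801-55178000 in intron 3 was at 0%, 0.875%, 0.546% and 2.33%, and that at chr3:55336201-55336400 in intron 16 at 11.6%, 9.76%, 1.98% and 11.7%. Of the 11 low bins of Pou2f3, 6 lay in intron 3 and 4 of those formed the stretch near its age-dependent pair.

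Each gene was also set beside the coding gene whose 12 levels, in 3 regions and 4 libraries, were closest by root mean square difference among 15255 genes. These were Ggta1 for Pou2f3 (1.93 points), Klhdc8a for Gfi1b (3.62), Fyn for Dclk1 (1.76), Theg for Trpm5 (3.30), Rbfox1 for Il25 (2.53), Tmem108 for Ptgs1 (1.55) and Arhgap24 for Alox5 (1.80). No member was the nearest gene of another.

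In a wider list of 65 genes used in tuft cells, 59 were measured, in 171 regions. Of these 8 regions (4.68%) were called with age in ISCs, 5 gains and 3 losses, beside the 2.17% over all genes, and 10 (5.85%) in differentiated cells, 5 of each, beside 1.96%. Between the populations 1 was called at P0 and 0 at P21, beside 0.95% and 0.664% over all genes. The median difference over the list was 0.62 points in ISCs and -0.17 in differentiated cells, beside medians of -0.0062 and -0.0056 over all regions. The promoter, body and last exon of Ly6g6d were all among the ISC calls, so those calls came from fewer genes than regions. No other setting is given for the calls of this list. The list was drawn from general knowledge, but with earlier results of these data known, and several of its genes are used in other cells too. Its shares are thus a description and not an independent test.

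Among the called promoters of the list, Ptges, the prostaglandin E synthase gene, had a promoter level of 51.8% in ISC_P0, 45.4% in DIFF_P0, 70.7% in ISC_P21 and 72.0% in DIFF_P21 (Fisher's exact test, adjusted p = 3.1e-14 in ISCs and 1.2e-55 in differentiated cells). The adaptor gene Sh2d6 had 43.5%, 46.4%, 68.6% and 64.6%, and the surface protein gene Ly6g6d 14.4%, 9.56%, 33.3% and 32.8%, each called in both populations. In all 3 promoters both P21 libraries were above both P0 libraries. Plcb2, the phospholipase of the taste cascade, rose in differentiated cells from 41.0% to 61.0%, and the G protein subunit gene Gnb3 from 27.6% to 43.8%. In ISCs the same 2 promoters were at 44.5% and 55.3%, and at 28.0% and 36.5%. The promoter of Sh2d7 went the other way in differentiated cells, from 91.9% to 73.5%.

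The body and last exon of Ly6g6d rose in ISCs, from 50.9% to 70.4% and from 47.5% to 74.3%. Its last exon was also the 1 region called between the populations at P0, 15.6 points higher in differentiated cells. The other called regions were last exons that fell. Siglecf, annotated as Siglec5, was at 80.3% in ISC_P0, 82.2% in DIFF_P0, 43.5% in ISC_P21 and 45.1% in DIFF_P21, and Vav1 at 52.9%, 60.8%, 30.6% and 33.3%, both called in both populations. Ascl2, a stem cell regulator, fell in differentiated cells from 50.8% to 12.1%, and was at 37.0% and 19.4% in ISCs. The villin gene Vil1 fell in differentiated cells from 29.0% to 5.64%, and was at 29.4% and 15.9% in ISCs. Hebp1 fell in ISCs from 83.7% to 64.6%, and was at 78.6% and 66.8% in differentiated cells. Each of these last exons rested on 1 to 3 bins.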

How the data were processed

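The authors aligned bisulfite reads to mm9 with Bismark and Bowtie, per the labels, versions, duplicate removal and strand merging not given in the sources used here. The deposited values were, for each cytosine of a CpG, the count of all calls and the count of methylated calls, with their ratio as a fraction. The fraction was not used further. Calls of both strands were summed, and positions off an mm9 CpG (0.469% to 0.86% of positions) were left out. CpGs were put in bins of 200 bp, kept where they held 2 or more CpGs and every library gave 10 or more calls. The X and Y chromosomes were left out.

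The transcript with the longest coding sequence of GENCODE M1 gave the promoter (within 1 kb of the start), body and last exon, and bins entered by their midpoint. Two-sided Fisher's exact tests compared methylated and unmethylated calls between 2 libraries, with Benjamini-Hochberg adjustment over all autosomal bins, or over all coding genes for each region kind. The difference between the changes with age was tested by a Wald test with 0.5 added to methylated and to unmethylated calls. With 1 library per group no replicate error could be had, and depth set the precision. Python 3.11.15, numpy 2.4.6, pandas 2.3.3, scipy 1.17.1 and numba 0.67.0 were used, and the scripts were tested on simulated data.

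The members, the wider lists and the tests were chosen with earlier results of these data known. The named bins were the called bins of each gene, up to 12 in a comparison by size. Bins called in both populations, adjacent called bins, bins of genes with few calls and the bins beside a change were added after their values were seen. So were the Pou2f3 losses at chr9:43010401-43010600 and chr9:43013201-43013400, while some other called bins of Pou2f3, gains among them, were not named. Of the wider list, 3 genes are on the X chromosome and 3 had no coding gene of that name in the annotation.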

Additional observations from a re-analysis of the deposited data

Results flagged for a closer look

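At 5 bins the change from P0 to P21 differed between ISCs and differentiated cells by the Wald test with Benjamini-Hochberg adjustment over all bins, which was added after the data were seen. The difference is the change in ISCs minus that in differentiated cells. In Dclk1 it was 55.5 points at chr3:55328801-55329000, where ISCs changed by 55.4 points and differentiated cells by -0.17. At chr3:55268601-55268800 it was 59.3 points, where ISCs changed by 0.21 points and differentiated cells by -59.1, and DIFF_P0 had only 19 calls. At chr3:55140801-55141000 it was 31.0 points, with changes of 39.4 and 8.45. At chr3:55173201-55173400 it was 24.96 points. There ISCs fell by 20.7 points and differentiated cells fell by 45.6, to nearly the same level.

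In the last exon of Ptgs1, at chr2:36106601-36106800, the difference was -42.1 points. The levels were 90.6% in ISC_P0, 73.8% in DIFF_P0, 63.9% in ISC_P21 and 89.2% in DIFF_P21, on 32 to 107 calls. The changes themselves, -26.7 and 15.4 points, had opposite signs and neither was called. With calls thinned to the lowest library the tests called 2 of the 5 bins, in Ptgs1 and in intron 16 of Dclk1. With calls divided by the CpGs of the bin they called 0 of the 5, with 2 at an unadjusted p under 0.05.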

How the results depend on the processing

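Of the 84 differences of member regions (21 regions in 4 comparisons) 0 gained or lost a call with a minimum of 20 calls or of 1 CpG per bin, with calls thinned to the lowest library or divided by the CpGs of the bin, with the mean of bin levels, or with the start farthest 5′. Their directions were less stable, and 3, 9, 18, 9, 22 and 4 of the 84 turned in these settings. Of the 19 that had passed the adjusted p, those that turned were of the Dclk1 promoter between the populations, to 0.609 points at P0 and at P21 with thinned calls and to 0.31 at P21 with the mean of bin levels. Of these 19, 6 lost the adjusted p with a minimum of 20 calls, 2 with 1 CpG, 12 with thinned and 17 with divided calls, and 1 with the start farthest 5′. Of the 5 upstream stretches that passed, settings applied to them after the data were seen turned 0, and the adjusted p was lost by 3 with thinned calls, 5 with divided calls and 2 with 1 CpG. With a 5-point rule in place of 15 points, 1 region was called with age in ISCs, 2 in differentiated cells and 1 between the populations at P0, beside 9.68%, 9.63% and 10.02% of all regions, and with 10 points 1 in differentiated cells, beside 4.08%. Counts of called bins depended more on the settings. From 32 with age in ISCs, 34 in differentiated cells, 4 at P0 and 5 at P21 they went to 16, 10, 1 and 3 with 30 points, beside 1.22%, 1.06%, 0.183% and 0.0729% of all bins. With no test they were 162, 155, 138 and 128, beside 13.5%, 12.1%, 10.6% and 9.53%. With thinned calls they were 21, 11, 0 and 2, beside 1.62%, 1.25%, 0.0961% and 0.0373%. With a minimum of 4 CpGs 438 member bins were tested in place of 1263, and 21 and 21 were called with age and 3 at P21, beside 4.16%, 4.05% and 0.497%. With bins shifted by 100 bp they were 2 at P0 and 3 at P21, beside 0.508% and 0.176%. With calls divided by the CpGs of the bin they were 0 in each comparison, and the shares over all bins fell to 0.0748%, 0.207%, 0.000319% and 4.91e-05%. The 5 bins whose changes differed between the populations became 0 with divided and 2 with thinned calls. A minimum of 20 calls or of 1 CpG kept the bin counts within 1.5 times. Of the 33 calls named by the rule, some of them in the same bin, 18 stayed with thinned calls; in the Trpm5 bin of intron 4 the thinned difference was 0 points. Apart from the settings' own construction the cause of these changes was not tested. The labels give no replicate numbers, so no replicate block was fitted. A fit of age and population together over the 4 libraries, which would leave 1 residual degree of freedom, was not run. With 1 library per group, leaving 1 out would leave a group empty. At 58 to 88 calls in the median bin, small changes of single bins were not detectable.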
